A study of Mus musculus with 2 samples.

Results

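The 6 genes described here form the axis by which lymphocytes reach type 1 conventional dendritic cells: the chemokine *Xcl1* and its receptor *Xcr1*, the growth factor *Flt3l* and its receptor *Flt3*, the dendritic cell lectin receptor *Clec9a*, and the transcription factor *Batf3*. They were taken by symbol, 6 of the 33696 genes listed, from the single-cell RNA profiles of subcutaneous CT26 tumors, a colon carcinoma line of BALB/c mice. Each gene is followed across natural killer (NK), T, dendritic and tumor cells. They were chosen by symbol after earlier results had shown their UMI levels in these same UT and BUP libraries, so their levels and differences are descriptions and carry no test.

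There were 2 libraries, 1 per condition, and each pooled 3 tumors of male BALB/c mice aged 6 to 8 weeks. The first, UT, came from untreated tumors. The other, BUP, came from tumors given a single dose of 40 mg/kg bupivacaine, a local anesthetic that blocks sodium channels of nerve fibers, in a hydrogel (BUP-Gel). No library of tumors given the gel alone was used here, so gel and drug cannot be told apart. Live CD45+ and CD45- cells had been sorted and mixed again before capture, so the ratio of immune to tumor cells was partly set by hand. With 1 library per condition there is no replicate error. Every interval below is a 95% interval that covers counting error only, and a level is the count of unique molecular identifiers (UMIs, 1 per captured RNA molecule) of a gene per 1000000 UMIs summed over the cells of a class (CPM).

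Type 1 conventional dendritic cells (cDC1) take up material of dying tumor cells and present it to CD8 T cells. NK cells and CD8 T cells secrete XCL1, and its receptor XCR1 is held almost solely by cDC1, so that the pair draws both kinds of cell together. FLT3 ligand, made by lymphocytes and other cells, keeps dendritic cells and their precursors alive through the kinase FLT3. CLEC9A binds actin filaments that dead cells expose, and BATF3 is needed for the cDC1 lineage to form. A dendritic cell that leaves the tumor for the lymph node switches on *Ccr7* and *Fscn1* and loses many of its tissue markers, and is called migratory here.

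On the mouse build GRCm39, *Xcl1* (ENSMUSG00000026573) lies at chr1:164759213-164763096 on the minus strand and *Batf3* (ENSMUSG00000026630) at chr1:190830044-190841142 on the plus strand. *Xcr1* (ENSMUSG00000060509) lies at chr9:123681380-123691094, minus strand, and *Clec9a* (ENSMUSG00000046080) at chr6:129385825-129401726, plus strand. *Flt3* (ENSMUSG00000042817) lies at chr5:147267551-147337483 and *Flt3l* (ENSMUSG00000110206) at chr7:44779212-44785875, both on the minus strand. All 6 are annotated as protein coding. The 250 bases before the start of the annotation's canonical transcript are printed for 4 of them. These are *Xcl1* for the lymphocyte side of the axis and *Xcr1*, *Clec9a* and *Batf3* for the dendritic cell side. They are shown 5′ to 3′ on the gene's own strand, and they cover chr1:164763097-164763346, chr9:123691095-123691344, chr6:129385575-129385824 and chr1:190830272-190830521 in that order.
Xcl1: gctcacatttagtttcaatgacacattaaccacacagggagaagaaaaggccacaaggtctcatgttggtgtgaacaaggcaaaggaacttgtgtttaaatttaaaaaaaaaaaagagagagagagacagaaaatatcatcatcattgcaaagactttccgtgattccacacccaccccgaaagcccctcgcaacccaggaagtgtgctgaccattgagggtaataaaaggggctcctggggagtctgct
Xcr1: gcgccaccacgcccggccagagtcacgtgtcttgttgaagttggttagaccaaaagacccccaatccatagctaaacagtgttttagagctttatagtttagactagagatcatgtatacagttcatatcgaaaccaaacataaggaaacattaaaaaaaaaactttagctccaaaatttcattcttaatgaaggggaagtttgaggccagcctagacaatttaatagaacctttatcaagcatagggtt
Clec9a: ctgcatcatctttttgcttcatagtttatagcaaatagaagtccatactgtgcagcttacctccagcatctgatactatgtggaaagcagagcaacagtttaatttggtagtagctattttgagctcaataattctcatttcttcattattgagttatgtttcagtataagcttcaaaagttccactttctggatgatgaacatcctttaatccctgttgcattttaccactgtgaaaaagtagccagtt
Batf3: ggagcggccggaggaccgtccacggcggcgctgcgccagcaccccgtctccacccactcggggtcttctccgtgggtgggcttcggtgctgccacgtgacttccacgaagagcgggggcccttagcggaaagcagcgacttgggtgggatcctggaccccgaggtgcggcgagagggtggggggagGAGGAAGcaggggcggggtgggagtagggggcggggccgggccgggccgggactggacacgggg

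The capitals mark GAGGAAG, the core letters bound by the myeloid factor PU.1, which stood 64 to 58 bases before the start of the canonical *Batf3* transcript. The *Batf3* window lies within the span of the gene given above, not before it. On either strand these letters were in 10.3% of 21770 mouse promoters of the same length. The AP-1 letters TGANTCA, of the kind bound by BATF and JUN dimers, were in 6.17% of those promoters and the T-box letters AGGTGTGA in 0.96%. Neither was in any of the 6 members' windows, and a missing match says only that these letters are not in that window. The match in the *Batf3* window overlaps no other motif searched. The base composition ran from 35.6% G and C for *Clec9a* and 38.8% for *Xcr1* to 74% for *Batf3*, with *Xcl1* at 44%, *Flt3l* at 56.4% and *Flt3* at 58.8%.

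In total, 83228442 UMIs (UT) and 89918925 UMIs (BUP) had been counted over 7556 and 7221 barcodes. Of these, 7163 and 6776 barcodes were kept, and 68 kept barcodes occurred in both. Clustering gave 23 clusters, 18 immune and 5 not. There were 4.25 immune cells per non-immune cell in UT and 1.48 in BUP, and summed Y-linked counts, present in the cells of a male host, were 150 and 170 CPM in immune cells against 5.77 and 5.10 CPM in the tumor-like cells. The classes were named from marker genes: NK-like cells (487 UT, 344 BUP) carried *Ncr1* at 839.5 and 776.4 CPM and little *Cd3e* (14.0 and 13.0 CPM), CD8 T-like cells (322 and 498) carried *Cd3e* at 1382 and 1393 CPM and *Cd8a* at 944 and 888 CPM. A cluster led by cell cycle genes (172 and 270 cells) held cycling CD8 T and NK cells together and is called cycling T and NK. A cluster led by *Il17a*, *Scart1* and *Foxp3* is called CD4 and gamma-delta T-like (115 and 87 cells). It was not free of CD8 T cell markers, which summed to 315 and 372 CPM, beside 657 and 383 CPM for CD4 T cell markers. Its summed gamma-delta T cell markers were 274 and 205 CPM, against 234 and 260 CPM in NK-like cells. cDC1-like cells (65 and 83) also carried markers outside the 6 genes, *Itgae* at 369 and 367 CPM and *Cadm1* at 421 and 460 CPM. Migratory DC-like cells (74 and 66) carried *Ccr7* at 4186 and 3803 CPM. A cluster with *Cd209a* (77 and 62 cells), which was led by the osteoclast genes *Ctsk* and *Acp5*, and a cluster with *Siglech*, which also held immunoglobulin genes (43 and 38 cells), are called by those genes.

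*Xcl1*, the chemokine of the axis, was a lymphocyte transcript, and its level was higher in BUP than in UT in NK-like and CD8 T-like cells and lower in cycling T and NK cells. In UT, 126 of 487 NK-like cells held 989 *Xcl1* UMIs, a level of 283 CPM (266 to 302). In BUP, 129 of 344 NK-like cells held 1567 UMIs, a level of 655 CPM (623 to 688). The BUP level was 2.31 times the UT level, a log2 ratio of 1.21 (1.09 to 1.33), and 9 of the 8407 genes tested in NK-like cells had a larger ratio in that direction. Of those genes, which had at least 50 UMIs over both libraries, 7.67% were past 1.5-fold, 1.33% as higher in BUP and 6.34% as lower. Of the 2 members that reached 50 UMIs there, *Xcl1* was past 1.5-fold and *Flt3l* was not. Higher genes made up 17.4% of the calls in NK-like cells, and 32.0% when the libraries were scaled by their median ratio in place of total UMIs.

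**Figure D1:**
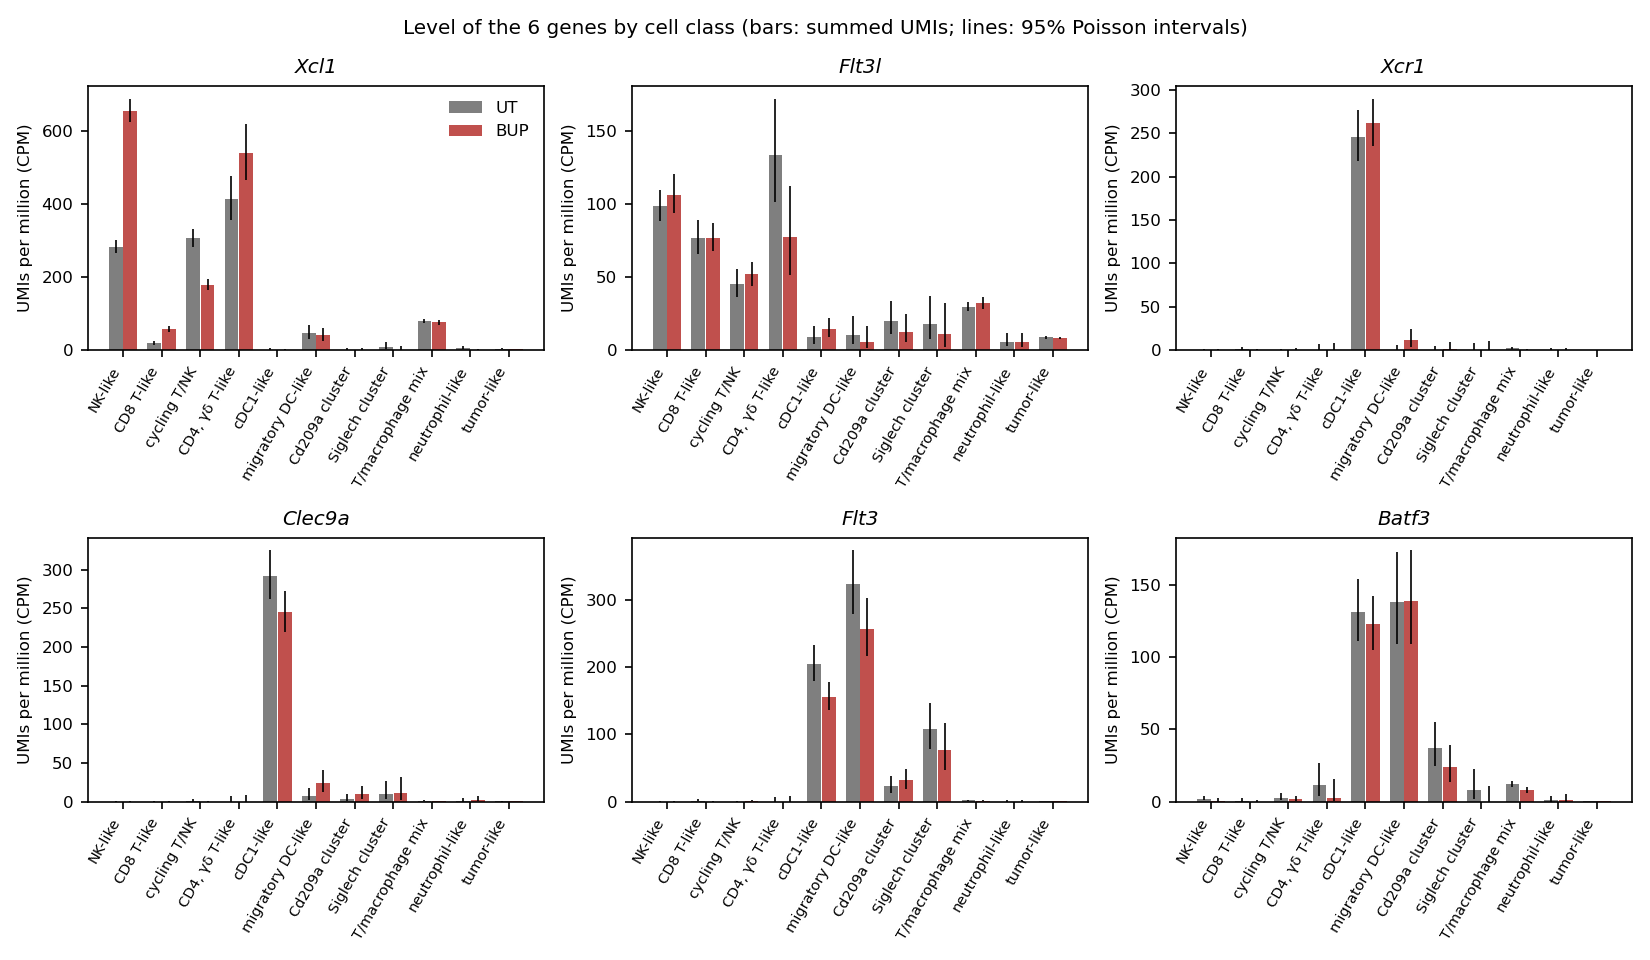
Level of each of the 6 genes by cell class, in CPM, with gray bars for UT, red bars for BUP and lines for 95% Poisson intervals, which cover counting error only. *Xcl1* and *Flt3l* are highest in NK and T cell classes, *Xcr1* and *Clec9a* in cDC1-like cells, and *Flt3* and *Batf3* in both cDC1-like and migratory DC-like cells.

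The *Xcl1* difference in NK-like cells lay both in how many cells held the transcript and in how much each held. A UMI was found in 25.9% of UT cells (22.04 to 30.004) and in 37.5% of BUP cells (32.4 to 42.9), at median depths of 5145 and 5577 UMIs. With each cell thinned to 2000 UMIs the shares were 22.6% of 394 cells and 34.6% of 283 cells, with 93 and 61 shallower cells left out. A positive cell held 7.85 UMIs on average in UT and 12.1 in BUP. Cells with 10 or more *Xcl1* UMIs numbered 30 in UT (6.16% of cells) and 49 in BUP (14.2%), and they held 69.9% and 80.6% of the class's *Xcl1* UMIs. So most *Xcl1* RNA sat in a minority of NK-like cells in either library. The tumor-like cells give the background: 0.885% of 1130 UT cells and 0.288% of 2434 BUP cells held an *Xcl1* UMI at median depths of 20311 and 17753 UMIs.

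**Figure D2:**
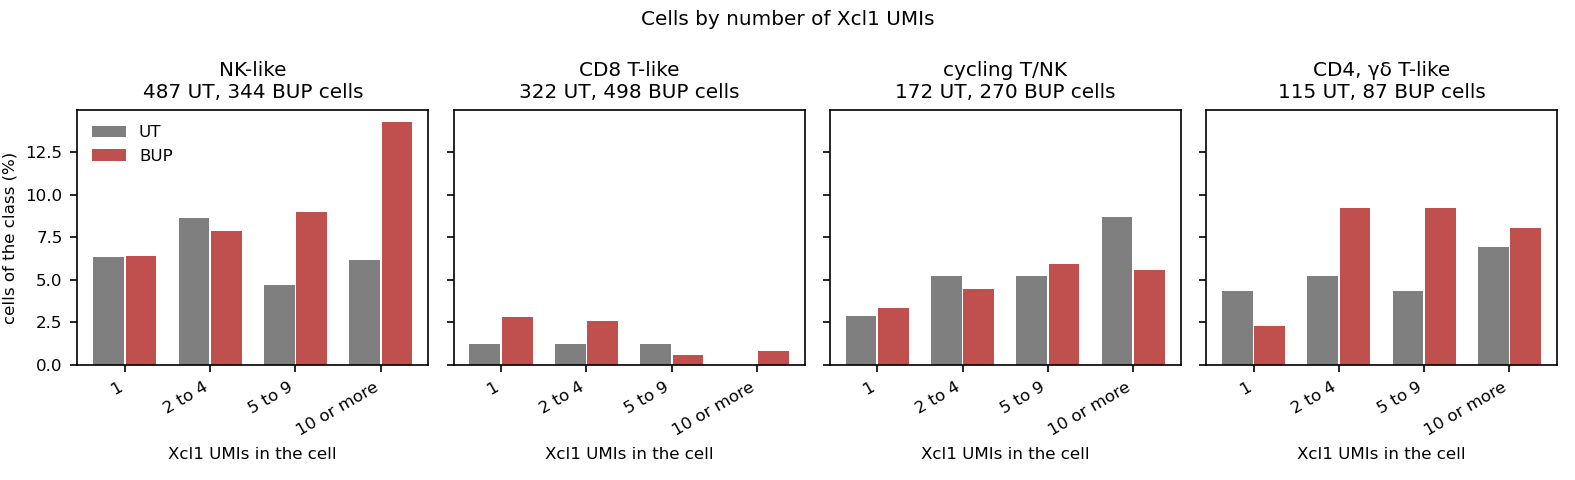
Share of cells, in percent, by the number of *Xcl1* UMIs in the cell, for 4 lymphocyte classes of the UT (gray) and BUP (red) libraries. Among NK-like cells the bin of 10 or more UMIs holds 6.16% of UT cells and 14.2% of BUP cells, while 74.1% and 62.5% of NK-like cells and 96.3% and 93.2% of CD8 T-like cells held none and are not drawn.

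Part of the NK-like class carried *Cd3* RNA, of the T cell receptor complex, and the *Xcl1* direction was the same with and without them. Cells with an NK receptor UMI and no *Cd3* UMI stood at 291 CPM in UT (325 cells) and 596 CPM in BUP (246 cells). Cells with both an NK receptor UMI and a *Cd3* UMI, 68 and 45, stood at 321 and 1041 CPM, and 18 and 8 further cells had a *Cd3* UMI alone. Without any cell that had a *Cd3* UMI the log2 ratio was 1.08, and without the 5 cells of most *Xcl1* in each library it was 1.36. Summed T cell markers in the NK-like class were 180 CPM in UT and 178 CPM in BUP.

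NK-like cells with an *Xcl1* UMI also differed from the rest of the class in other cytokine transcripts, described here without a test because both groups of cells share a library. In UT they carried *Ccl4* at 653 CPM against 287 CPM in NK-like cells with no *Xcl1* UMI, and *Ccl5* at 844 against 487 CPM. In BUP *Ccl4* stood at 242 against 232 CPM and *Ccl5* at 530 against 503.97 CPM, a smaller gap than in UT. *Ccl3*, another chemokine, stood at 113 against 69.0 CPM in UT and at 46.8 against 28.9 CPM in BUP. *Ifng*, the cytokine interferon gamma, stood at 54.2 against 31.4 CPM in UT and at 75.6 against 20.7 CPM in BUP, and *Tnf* at 87.2 against 44.7 CPM and 108 against 50.9 CPM. *Flt3l* did not separate these cells, with 95.7 against 100 CPM in UT and 104 against 108 CPM in BUP. Cells with an *Xcl1* UMI were deeper, with medians of 6648.5 against 4481 UMIs in UT and 6946 against 4340 UMIs in BUP, and the part of depth in these gaps was not tested.

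In CD8 T-like cells *Xcl1* was much scarcer. In UT, 12 of 322 cells held 46 UMIs, a level of 19.6 CPM (14.3 to 26.1). In BUP, 34 of 498 cells held 186 UMIs, a level of 58.0 CPM (49.97 to 66.97), for a log2 ratio of 1.57 (1.09 to 2.07). Among the 8416 genes tested in this class 9.08% were past 1.5-fold, 2.12% as higher and 6.96% as lower, and 10 had a larger ratio toward BUP. Of the 2 members tested there, *Xcl1* was called and *Flt3l* was not, and higher genes made up 23.3% of the calls, or 40.4% under median-ratio scaling. A few cells carried the level, since the top 5 held 71.7% of the UMIs in UT and 66.1% in BUP, and 4 BUP cells and 0 UT cells held 10 or more. The share of positive cells was 3.73% in UT (1.94 to 6.42) and 6.83% in BUP (4.77 to 9.41), intervals that overlap. When cells of the cycling cluster with *Cd3* and *Cd8* UMIs were added to the class, the log2 ratio was -0.028, so the direction in CD8 T cells rests on leaving cycling cells out.

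Cycling T and NK cells went the other way. In UT 38 of 172 cells held 631 *Xcl1* UMIs, a level of 306 CPM (283 to 331), and in BUP 52 of 270 cells held 535 UMIs, a level of 178 CPM (163 to 194). The log2 ratio was -0.79 (-0.95 to -0.62). Of 8388 genes tested, 8.99% were past 1.5-fold, 3.18% as higher and 5.81% as lower, and higher genes made up 35.4% of the calls, or 48.9% under median-ratio scaling. Of the 2 members tested, *Xcl1* was called as lower and *Flt3l* was not called, and the *Xcl1* ratio fell short of 1.5-fold without the 5 highest cells of each library (-0.35) and after thinning (-0.55). In the same cluster summed NK markers were 2919 and 2237 CPM and summed T cell markers 2712 and 3052 CPM. At a finer resolution of 1.0 the cluster came apart into cycling CD8 T cells (105 and 204 cells, *Cd8a* at 715 CPM) and cycling NK cells (66 and 64 cells, *Ncr1* at 572 CPM). In the cycling NK cells *Xcl1* was at 579 CPM in UT and at 557 CPM in BUP, with a log2 ratio of -0.056 (-0.26 to 0.15), and was found in 45.5% and 64.1% of cells. In the cycling CD8 T cells it was at 154 CPM and at 73.3 CPM, with a log2 ratio of -1.07 (-1.37 to -0.77), and the top 5 cells held 96.3% and 92.4% of the UMIs. Only 9.52% and 5.39% of the cycling CD8 T cells were positive. Cycling NK cells, which had the higher *Xcl1* level, were also a smaller part of the cluster in BUP by the cell numbers above, and how much of the class's difference lay in that mix was not tested.

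CD4 and gamma-delta T-like cells held *Xcl1* at 413 CPM in UT (355 to 477, 115 cells) and 538 CPM in BUP (465 to 620, 87 cells), a log2 ratio of 0.38 (0.08 to 0.68). Within this cluster the 20 UT and 13 BUP cells with a *Foxp3* UMI, the regulatory T cell factor, held 0 *Xcl1* UMIs. Cells with both *Cd3* and an NK receptor UMI, 16 and 8 of them, stood at 1070 and 1520 CPM. They held 100 of the class's 182 *Xcl1* UMIs in UT and 77 of 194 in BUP. In BUP 5 more cells had an NK receptor UMI and no *Cd3* UMI, with 36 *Xcl1* UMIs, against 0 such cells in UT. Cells with a *Cd3* UMI and no NK receptor UMI, 94 and 70, stood at 242 and 240 CPM. Cells with *Cd3* and *Cd8* UMIs, 27 and 25, which overlap these groups, held 79 and 56 *Xcl1* UMIs. By whole class, the order of levels in UT was CD4 and gamma-delta T-like, cycling, and NK-like cells, of which the last 2 had overlapping intervals. In BUP NK-like cells came first, then CD4 and gamma-delta T-like and cycling cells, with no overlap between neighbors. CD8 T-like cells were below all 3 in either library. These intervals take no account of how UMIs cluster in cells. In CD4 and gamma-delta T-like cells, 8 UT and 7 BUP cells with 10 or more *Xcl1* UMIs held 66.5% and 60.8% of them. In cycling cells 15 such cells in each library held 85.4% and 72.5%.

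In the tumor-like and dendritic cell classes *Xcl1* was held by few cells. Tumor-like cells held 98 UMIs in UT and 111 in BUP, 3.53 and 2.25 CPM (log2 ratio -0.65), but 94.9% and 97.3% of these UMIs were in 5 cells. The 2 tumor-like clusters went opposite ways, the one led by *Ogn* with 5 and 39 UMIs (log2 ratio 1.42) and the one led by *Esm1* with 93 and 72 (-0.61). cDC1-like cells held 1 UMI in each library. Among migratory DC-like cells 27 UMIs sat in 1 UT cell and 22 in 5 BUP cells. Clusters that carried T cell and macrophage markers together (590 and 400 cells) held 859 and 569 *Xcl1* UMIs, at 78.7 and 75.6 CPM. Their summed macrophage markers were 12023 and 9298 CPM, and how far these clusters are doublets was not tested. Within them, cells with an NK receptor UMI and no *Cd3* UMI, 91 and 43, stood at 246 and 335 CPM. Of these cells 40.7% and 62.8% held an *Xcl1* UMI. Cells with both a *Cd3* and an NK receptor UMI, 158 and 193, stood at 106 and 63.4 CPM. Of all *Xcl1* UMIs in the kept cells, NK-like cells held 34.1% in UT and 47.9% in BUP, cycling cells 21.7% and 16.4%, the mixed clusters 29.6% and 17.4%, and CD8 T-like cells 1.59% and 5.69%.

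**Figure D3:**
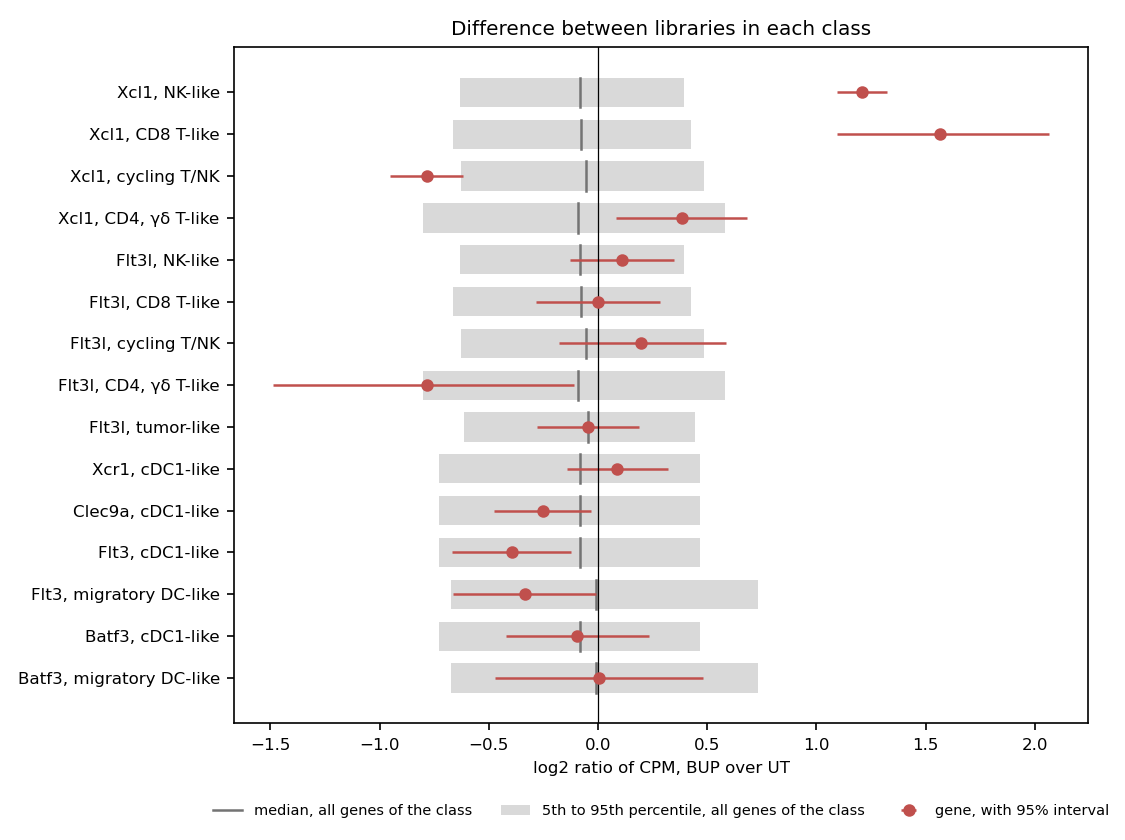
Log2 ratio of the BUP to the UT level for each member in selected classes, as red points with 95% intervals for counting error only. Gray bands run from the 5th to the 95th percentile of all genes tested in the class, with a gray tick at their median. *Xcl1* (-0.65) and *Flt3* (-0.17) were also tested in tumor-like cells and are not drawn there. *Xcl1* lies to the right of 0 in NK-like and CD8 T-like cells and to the left in cycling T and NK cells, while *Xcr1* and *Batf3* in cDC1-like cells and *Flt3l* in NK-like cells have intervals that cross 0.

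*Flt3l*, the growth factor for dendritic cells, was spread more evenly over lymphocytes and did not differ between the libraries beyond counting error in NK-like, CD8 T-like or tumor-like cells. NK-like cells held 345 UMIs in UT and 255 in BUP, 98.8 CPM (88.7 to 110) and 107 CPM (93.9 to 121), a log2 ratio of 0.11 (-0.13 to 0.35). CD8 T-like cells held 181 and 247 UMIs, which gave 77.0 CPM in either library, a log2 ratio of 0.00 (-0.28 to 0.28). Cycling T and NK cells stood at 45.2 and 51.8 CPM. The intervals reach log2 ratios of 0.35 and 0.28 in these 2 main classes, so equal levels were not shown either. A UMI was found in 38.4% and 41.9% of NK-like cells, against 1.28% and 1.41% of neutrophil-like cells and 0.781% and 0.877% of erythrocyte-like cells, whose median depths of 1887 and 2129 and of 1018 and 1116 UMIs were lower. Thinned to 2000 UMIs, NK-like cells were positive in 17.8% and 19.8% and neutrophil-like cells in 1.42% and 0.881%. No cell held more than 11 *Flt3l* UMIs in these classes, unlike *Xcl1*.

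CD4 and gamma-delta T-like cells had the highest *Flt3l* level of UT, 134 CPM (102 to 173, 59 UMIs), and in BUP stood at 77.7 CPM (51.6 to 112, 28 UMIs), a log2 ratio of -0.78 (-1.49 to -0.11). In this class 2925 genes were tested and 15.7% were past 1.5-fold, 4.96% as higher and 10.8% as lower. Of the 2 members tested, *Flt3l* was past 1.5-fold as lower and *Xcl1* was not. At resolution 1.0 *Flt3l* fell short of it (-0.55, with an interval of -1.26 to 0.15) and *Xcl1* passed it (0.65), and with 30 principal components *Flt3l* fell short again (-0.57). Its UT level overlapped that of NK-like cells. In BUP NK-like cells came first, and their interval overlapped that of CD4 and gamma-delta T-like cells but not that of CD8 T-like cells (67.7 to 87.3), with cycling cells lowest.

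Tumor-like cells carried little *Flt3l* per cell, 8.65 CPM in UT (7.59 to 9.82) and 8.37 CPM in BUP (7.59 to 9.22), but there were many of them and each was deep. They held 240 and 414 UMIs, or 14.3% of all *Flt3l* UMIs in UT and 26.2% in BUP, against 20.5% and 16.1% in NK-like cells. Immune clusters that were given no name held 22.3% and 11.1%, at 12.6 and 10.6 CPM. The mixed T and macrophage clusters held 19.3% and 15.5%. These shares move with the sorted mix of immune and non-immune cells given above. The log2 ratio in tumor-like cells was -0.05 (-0.28 to 0.19). A UMI was found in 17.2% and 14.8% of them, and in 2.09% and 1.66% after thinning. The thinned shares have intervals that overlap those of neutrophil-like cells, which held 8 and 6 UMIs, at 5.85 and 5.47 CPM. With so few counts in the background class, the overlap cannot show whether tumor-like cells express *Flt3l* above background. In tumor-like cells 13380 genes were tested and 8.17% were past 1.5-fold, 2.70% as higher and 5.47% as lower, and of the 3 members tested *Xcl1* alone was past it, as lower. Dendritic cell classes held *Flt3l* at 8.85 and 14.3 CPM (cDC1-like, 10 and 20 UMIs) and at 10.6 and 5.55 CPM (migratory, 6 and 3 UMIs).

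*Xcr1*, the receptor of XCL1, was found almost only in cDC1-like cells and had the same level there in both libraries within counting error. In UT 53 of 65 cells held 278 UMIs, 246 CPM (218 to 277). In BUP 71 of 83 cells held 367 UMIs, 262 CPM (236 to 290), a log2 ratio of 0.09 (-0.14 to 0.32). The class held 88.0% of all *Xcr1* UMIs in UT and 91.5% in BUP. A UMI was found in 81.5% and 85.5% of its cells at median depths of 16552 and 16078 UMIs, and in 0.621% and 0.201% of CD8 T-like cells at 6282.5 and 5752.5 UMIs. Thinned to 2000 UMIs the cDC1-like shares were 46.0% (33.4 to 59.1) and 37.3% (27.0 to 48.7). NK-like cells held 0 *Xcr1* UMIs in either library, which allows up to 0.860 CPM in UT and 1.25 CPM in BUP, and tumor-like cells held 2 and 14 UMIs. The 6 members were left out of the genes that formed the clusters, but the cells are the same, so no test of a class against the rest was made.

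The share of cells that were cDC1-like was higher in BUP. They made up 65 of 5798 immune cells in UT, 1.12% (0.87 to 1.43), and 83 of 4047 in BUP, 2.05% (1.64 to 2.54). *Xcr1* summed over all immune cells was measured at 5.90 CPM for UT and 10.4 CPM for BUP, a log2 ratio of 0.82 (0.60 to 1.04), while its level within the class did not differ beyond counting error. *Clec9a* summed the same way stood at 7.10 and 10.4 CPM. Migratory DC-like cells made up 1.28% and 1.63% of immune cells and NK-like cells 8.40% and 8.50%. CD8 T-like cells made up 5.55% and 12.3%. On the ligand side, *Xcl1* over all immune cells was at 52.6 CPM (2791 UMIs) and at 84.6 CPM (3144 UMIs). Its log2 ratio was 0.69 (0.61 to 0.76). *Flt3*, which was lower in both dendritic cell classes, had a log2 ratio of 0.28 (0.09 to 0.46) in the same sum. Immune clusters that were given no name made up 55.1% of immune cells in UT and 43.0% in BUP. The part of that mix in these sums was not tested. For *Flt3l* the log2 ratio over all immune cells was 0.20, and for *Batf3* it was -0.09 (-0.26 to 0.08). Over all kept cells, where the sorted mix enters, *Xcl1* was at 35.1 CPM and at 36.6 CPM (log2 ratio 0.06), and the ratio of *Xcr1* was 0.23. The other members were lower in that sum, *Batf3* at -0.68 (-0.85 to -0.51), *Flt3* at -0.28, *Flt3l* at -0.20 and *Clec9a* at -0.04 (-0.25 to 0.17).

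**Figure D4:**
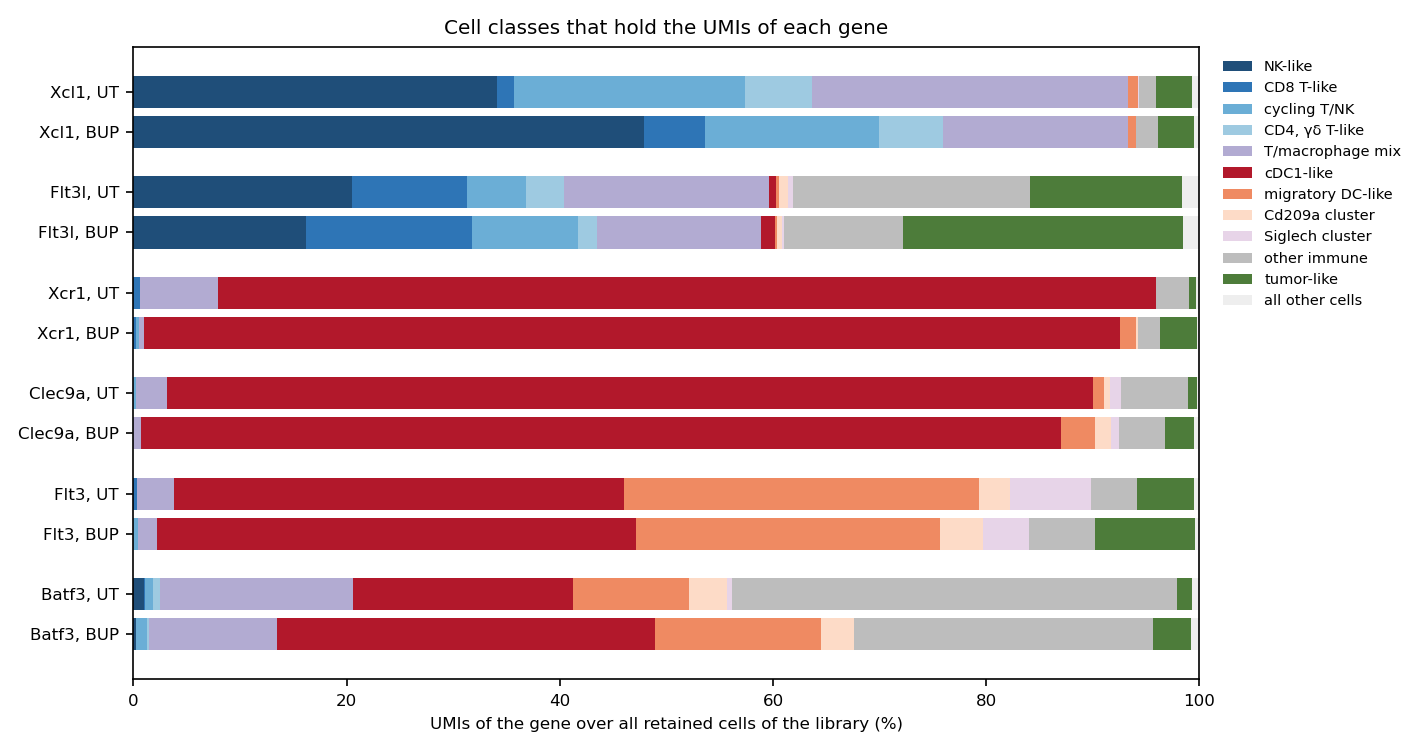
Share of each member's UMIs, in percent of all kept cells of a library, by cell class, as stacked bars, 1 for UT and 1 for BUP per gene. cDC1-like cells hold 88.0% and 91.5% of the *Xcr1* UMIs, and NK-like cells hold 34.1% and 47.9% of the *Xcl1* UMIs.

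*Clec9a*, the receptor for dead cells, followed *Xcr1* across classes and was slightly lower in BUP cDC1-like cells. These held 330 UMIs in UT, 292 CPM (262 to 325), and 344 UMIs in BUP, 245 CPM (220 to 273), a log2 ratio of -0.25 (-0.47 to -0.03). This is short of 1.5-fold. The share of cells with a UMI was 90.8% and 90.4%, and after thinning 38.1% and 42.2%. CD8 T-like and NK-like cells held 0 UMIs, and cDC1-like cells held 86.8% and 86.2% of the *Clec9a* UMIs. In migratory DC-like cells *Clec9a* stood at 7.09 CPM in UT (4 UMIs) and 24.1 CPM in BUP (13 UMIs, in 8 of 66 cells), and *Xcr1* was at 0 UMIs in UT, which allows up to 5.31 CPM, and at 6 UMIs in 4 BUP cells. Both counts are small, and the part of misassigned or mixed cells in them was not tested.

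Across cDC1-like cells 5948 genes were tested and 11.6% were past 1.5-fold, 2.76% as higher in BUP and 8.83% as lower. All 4 dendritic cell members were tested and 0 were past it. Higher genes made up 23.8% of the calls, or 42.6% under median-ratio scaling. The median gene had a log2 ratio of -0.08 in this class. On the ranking of all genes tested, *Xcr1* stood at the percentile 71.1, *Batf3* at 48.2, *Clec9a* at 30.7 and *Flt3* at 18.8. Summed markers of other cells in the cDC1-like class were 20.4 and 33.5 CPM for T cells, 1122 and 1150 CPM for macrophages and 862 and 1356 CPM for neutrophils, 152 and 298 CPM for NK cells and 406 and 0.713 CPM for erythrocytes. Summed cell cycle genes were 955 and 527 CPM. Their part in these levels was not tested.

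*Flt3*, the receptor of FLT3 ligand, had its highest levels in migratory DC-like and cDC1-like cells and was lower in BUP in both. In cDC1-like cells it stood at 205 CPM in UT (180 to 234, 232 UMIs) and 156 CPM in BUP (136 to 178, 219 UMIs), a log2 ratio of -0.40 (-0.67 to -0.12). The migratory class stood at 324 CPM (279 to 375, 183 UMIs) and 257 CPM (216 to 304, 139 UMIs), a log2 ratio of -0.33 (-0.66 to -0.01). Neither passed 1.5-fold. UMIs were found in 86.2% and 79.5% of cDC1-like cells and in 68.9% and 72.7% of migratory cells. Thinned, the migratory shares were 51.6% (38.6 to 64.5) and 35.6% (23.6 to 49.1). The *Siglech* cluster stood at 109 and 76.7 CPM with 42 and 21 UMIs, and the *Cd209a* cluster at 23.01 and 31.7 CPM with 16 and 20 UMIs, both with overlapping intervals. CD8 T-like cells held 2 and 0 *Flt3* UMIs and tumor-like cells 29 and 46, or 1.05 and 0.93 CPM.

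Over the migratory DC-like cells 3233 genes were tested and 14.8% were past 1.5-fold, 7.52% as higher and 7.27% as lower, and of the 2 members tested, *Flt3* and *Batf3*, 0 were called. This class carried more RNA of other cells in BUP: summed T cell markers were 53.1 CPM in UT and 422 CPM in BUP, macrophage markers 554 and 875 CPM and neutrophil markers 429 and 1025 CPM, with all 5, 7 and 5 markers of these lists above 0 in either library. Summed markers of migratory cells were 11393 CPM in UT and 8972 CPM in BUP. The part of these differences in the *Flt3* and *Clec9a* levels was not tested. With the 6% of cells of highest Scrublet doublet score left out, the *Flt3* log2 ratio in this class was -0.13.

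*Batf3*, the transcription factor, had like levels in cDC1-like and migratory DC-like cells and did not differ between libraries beyond counting error in either. cDC1-like cells stood at 131 CPM in UT (111 to 154, 148 UMIs) and 123 CPM in BUP (105 to 142, 172 UMIs), a log2 ratio of -0.10 (-0.42 to 0.23). Migratory DC-like cells stood at 138 and 139 CPM with 78 and 75 UMIs, a log2 ratio of 0.01 (-0.47 to 0.48). The shares with a UMI were 78.5% and 75.9% of cDC1-like cells and 45.9% and 54.5% of the shallower migratory cells. Unlike *Xcr1* and *Clec9a*, *Batf3* was also present at low levels elsewhere, at 37.4 and 23.8 CPM in the *Cd209a* cluster and 11.9 and 7.70 CPM in the mixed T and macrophage clusters. The immune clusters that were given no name, led by genes such as *Cxcl3*, *C1qa* and *Chil3*, held 41.8% of all *Batf3* UMIs in UT and 28.1% in BUP, against 20.6% and 35.5% in cDC1-like cells. Background was low: tumor-like cells stood at 0.361 and 0.344 CPM, and erythrocyte-like cells held 0 UMIs, which allows up to 20.9 and 20.4 CPM at their depth.

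The 4 dendritic cell members were found together in most cDC1-like cells. All 4 had a UMI in 42 of 65 UT cells, 64.6% (51.8 to 76.1), and in 47 of 83 BUP cells, 56.6% (45.3 to 67.5), and cells with 0 of the 4 numbered 1 and 0. *Xcr1* and *Clec9a* were found together in 80.0% and 79.5% of cells. *Flt3* without either of these receptors occurred in 3 and 2 cDC1-like cells. In migratory DC-like cells this was the main pattern, with 48 of 74 UT cells (64.9%) and 40 of 66 BUP cells (60.6%). There, *Flt3* and *Batf3* were together in 25 and 29 cells, and *Xcr1* or *Clec9a* was present in 4 UT cells (5.41%) and 9 BUP cells (13.6%). All 4 members occurred in 0 and 2 migratory cells.

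**Figure D5:**
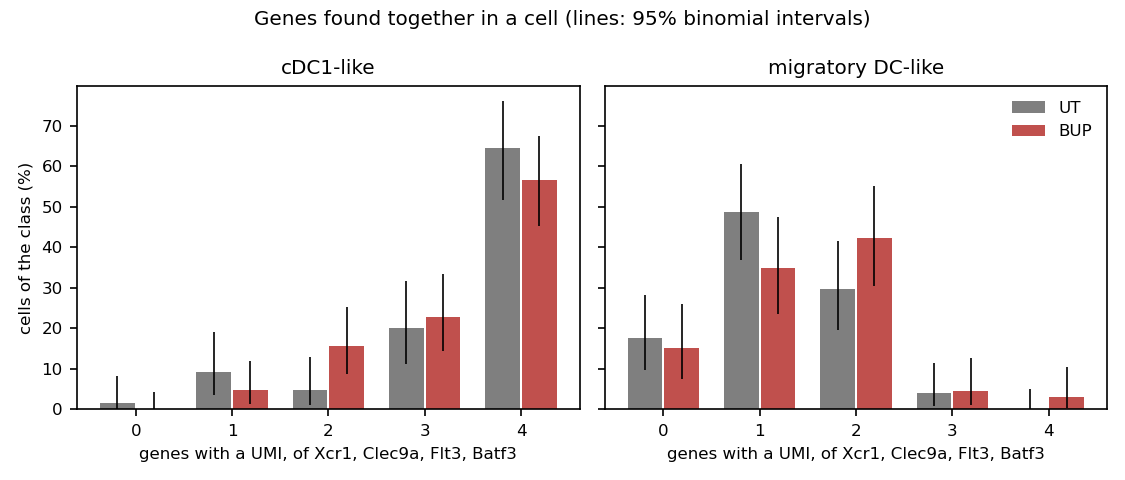
Share of cDC1-like and migratory DC-like cells, in percent, by how many of *Xcr1*, *Clec9a*, *Flt3* and *Batf3* had at least 1 UMI, for UT (gray) and BUP (red), with lines for 95% binomial intervals. Cells with all 4 make up 64.6% and 56.6% of cDC1-like cells and 0 and 2 cells of the migratory class.

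The wider pathway was described with 8 lists of genes that act beside the members, chosen with earlier results known. Over the classes each list bears on, 99 gene and class pairs had enough UMIs, of which 6 were past 1.5-fold as higher in BUP, 12 as lower and 81 neither. Over all genes tested in the same classes, as given above, 7.67% to 14.8% were past 1.5-fold in either direction. Of the other chemokines and cytokines that lymphocytes release with XCL1, 0 of 5 tested were higher in NK-like cells and 2 were lower, with a median log2 ratio of -0.18 against -0.08 over all genes of the class. *Ccl3* stood at 80.8 CPM for UT and 35.96 CPM for BUP (log2 ratio -1.17) and *Ccl4* at 386 and 236 CPM (-0.71), while *Ccl5* stood at 583 and 514 CPM (-0.18). *Tnf* was higher in BUP but short of 1.5-fold, at 56.2 and 73.2 CPM (0.38, 0.08 to 0.68). In CD8 T-like cells 1 of 6 was higher and 2 were lower, with *Ccl5* at 801 and 1336 CPM (0.74), *Ccl3* at 443 and 212 CPM (-1.06) and the growth factor *Csf2* at 31.5 and 12.2 CPM (-1.37). *Ccl3* is also a product of macrophages and neutrophils, whose summed markers in CD8 T-like cells were 354 and 186 CPM and 365 and 152 CPM, and their part in its level was not tested.

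Another list held genes that free FLT3 ligand and similar proteins from the cell surface. In NK-like cells 1 of 3 was past 1.5-fold: *Rhbdf2*, which escorts the protease ADAM17, stood at 17.8 and 11.7 CPM (log2 ratio -0.60, -1.30 to 0.064), beside *Adam17* at 56.4 and 74.4 CPM (0.40). In CD8 T-like cells 0 of 3 and in tumor-like cells 0 of 4 were past it. Downstream of FLT3, 0 of 9 signaling genes were past 1.5-fold in cDC1-like cells, with a median log2 ratio of -0.17. In migratory DC-like cells 2 of 10 were higher, the adaptors *Gab2* (112 and 174 CPM) and *Sh2b3* (39.0 and 59.2 CPM), and *Stat5a*, a factor that cytokine receptors activate, was lower at 149 and 79.6 CPM (-0.90). The *Sh2b3* ratio rests on 22 and 32 UMIs and its interval of -0.22 to 1.46 crosses 0. The most abundant gene of the list there, *Stat3*, stood at 914 and 733 CPM (-0.32).

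Genes that act with CLEC9A in handling dead cells showed 0 of 8 past 1.5-fold in cDC1-like cells. Among them *Ptpn6*, a phosphatase that damps receptor signaling, stood at 112 and 150 CPM (log2 ratio 0.42), *Gsn*, which binds and cuts actin filaments, at 293 and 235 CPM (-0.32), and *Wdfy4*, needed for cross-presentation, at 966 and 789 CPM (-0.29). The most abundant was *Cyba*, a subunit of the phagosomal oxidase, at 1095 and 1314 CPM (0.26). Of 11 genes of the BATF3 network in cDC1-like cells, *Jun*, a partner of BATF3, was lower at 1091 and 727 CPM (-0.59, -0.71 to -0.47). That ratio lies at the 1.5-fold cutoff itself, in a class whose median gene had a log2 ratio of -0.08. *Irf8*, the other factor the lineage depends on, stood at 1842 and 1813 CPM (-0.02). In migratory DC-like cells 1 of 11 was higher, *Zeb2* at 93.9 and 250 CPM (1.41), a factor that monocytes and macrophages also express, in the class whose macrophage markers were also higher in BUP. The most abundant gene of this list there, *Junb*, stood at 1260 and 1577 CPM (0.32).

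Among signals that dendritic cells send back to lymphocytes, *Cxcl9* was lower in both dendritic cell classes and *Ccl17* was past 1.5-fold in opposite directions, a difference between classes that was not tested. In cDC1-like cells 2 of 8 were higher, the CCR4 ligands *Ccl17* at 25.7 and 52.8 CPM (log2 ratio 1.04, 0.40 to 1.71, with 29 and 74 UMIs) and *Ccl22* at 21.3 and 40.7 CPM (0.94), and 1 was lower, the CXCR3 ligand *Cxcl9* at 206 and 128 CPM (-0.68). In migratory DC-like cells 2 of 8 were past 1.5-fold, both as lower, *Ccl17* at 606 and 309 CPM (-0.97) and *Cxcl9* at 67.3 and 25.9 CPM (-1.38). Of 5 other chemokine receptors in cDC1-like cells, *Ccr1* was lower at 64.6 and 37.1 CPM (-0.80). For prostaglandin E2, which is known to hold back NK cells and cDC1, 0 of 4 synthesis genes were past 1.5-fold in tumor-like cells, where *Ptgs2* stood at 290 and 242 CPM (-0.26). Its receptor *Ptger2* was lower in cDC1-like cells at 28.3 and 13.5 CPM (-1.06, 32 and 19 UMIs), and *Ptger4* stood at 39.8 and 37.8 CPM (-0.08).

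Across the 23 clusters, with both libraries summed, the genes whose log2 levels ran most like each member were found among 13341 genes. For *Xcl1* these were *Samd3* (Pearson's r 0.956), *Klra7*, an NK cell receptor gene (0.936), and *Eya2* (0.931), and for *Flt3l* they were *Lax1* (0.967), *Il12rb1* (0.963) and *Gimap3* (0.956). For *Xcr1* they were *Hepacam2* (0.969), *P3h2* (0.965) and *Cpne4* (0.960), and for *Clec9a* *Ffar4* (0.983), *Ccser1* (0.960) and *Hepacam2* (0.956). *Flt3* ran most like *Kynu* (0.935), *Tbc1d8* (0.887) and *Btla* (0.870), and *Batf3* like *Cst3* (0.879), *Slc22a18* (0.878) and *Syngr2* (0.872). Between members r was 0.932 for *Xcr1* and *Clec9a*, 0.855 for *Xcl1* and *Flt3l*, 0.823 for *Clec9a* and *Flt3* and 0.781 for *Flt3* and *Batf3*. The clusters share libraries and depth, so these values are descriptions only.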

How the data were processed

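Single-cell RNA of sorted live cells was captured with 5′ chemistry in 2 libraries, UT and BUP, each a pool of 3 tumors. The deposited files hold counts, as UMIs per gene and cell. Per the file headers the authors made them with Cell Ranger 8.0.1 on GRCm39, without normalization, and the submitters' processing notes also name Seurat 5.0.1. The sort ratio of CD45+ to CD45- cells is given as 4 to 1 in the labels and 3 to 1 in the study's methods.

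Barcodes with under 100 UMIs or over 20% mitochondrial UMIs were left out. Cells were clustered with Seurat 5.3.0 in R 4.3.3 (2000 variable genes, 20 principal components, resolution 0.5), with the 72 member and pathway list genes left out of the variable genes, and no doublet was removed. Clusters were called immune where 30% of cells held a *Ptprc* UMI and were named from marker genes, at least 3 detected per class, with cutoffs set after the clusters were seen. UMIs were summed per class and library in Python 3.11.15 with scipy 1.17.1. Levels carry exact Poisson intervals, shares exact Clopper-Pearson intervals, and ratios an exact conditional interval, all at 95% and for counting error only. A count of 0 was given the limit of 3 counts. With 1 library per condition no test was made. A gene was called where it passed 1.5-fold among genes with at least 50 UMIs in the class. Likeness used log2 of CPM plus 5 over genes with at least 200 UMIs, and the 3 most alike genes are named. In each pathway list and class the gene of highest level and up to 3 with the largest ratios could be named. The members and lists were chosen with earlier results of these data known. The ratio script was tested on simulated data. Promoters were cut from GRCm39 with the GENCODE annotation.

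UT held 83228442 and BUP 89918925 UMIs, with medians of 8430 and 10420 UMIs per kept barcode. Alternatives covered filters, doublets, clustering, scaling, thinning and single groups of cells.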

Additional observations from a re-analysis of the deposited data

Results flagged for a closer look

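*Xcl1* had log2 ratios of BUP to UT of opposite direction in different cell classes, 1.21 in NK-like and 1.57 in CD8 T-like cells against -0.79 in cycling T and NK cells and -0.65 in tumor-like cells. The tumor-like value is not shared by both tumor-like clusters, which had 1.42 and -0.61, and 94.9% and 97.3% of its UMIs were in 5 cells. At resolution 1.0 the cycling NK cluster had -0.056 (-0.26 to 0.15). The cycling CD8 T cluster had -1.07, with 96.3% and 92.4% of its UMIs in 5 cells. In CD8 T-like cells the value was -0.028 once cycling cells with *Cd3* and *Cd8* UMIs were added. The difference between classes was not tested, since each condition had 1 library. *Ccl17* had a log2 ratio of 1.04 in cDC1-like cells and -0.97 in migratory DC-like cells, a difference that was not tested either.

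Barcodes that the filters removed still held member UMIs above the 3 that a count of 0 allows: 9 of *Flt3l* in UT and 4 in BUP, 7 of *Flt3* in UT and 4 of *Batf3* in UT.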

How the results depend on the processing

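Of 241 alternative values, 194 stayed within the interval of the reported one (counts within 1.5 times it, values on another scale in the same direction), 46 moved further and 1 reversed. The reversal was *Xcl1* in CD8 T-like cells, -0.028 once cycling cells with *Cd3* and *Cd8* UMIs were added, an alternative chosen after seeing the data. Log2 ratios of *Xcl1* in NK-like cells ran from 1.08 to 1.48, with 1.48 after thinning, 1.36 without the 5 highest cells and 1.08 without *Cd3*-positive cells. In CD8 T-like cells *Xcl1* was 0.67 with 30 principal components and 1.09 without cells that had an NK receptor UMI. In cycling cells it was -1.08 with 30 components, -0.55 thinned, -0.35 without the 5 highest cells, -1.07 in the cycling CD8 T cluster and -0.056 in the cycling NK cluster. Thinning gave 0.37 for *Flt3l* in CD8 T-like cells, -0.49 for *Clec9a* in cDC1-like cells and 0.81 for *Batf3* in migratory DC-like cells, but another draw of thinned cells gave *Clec9a* at 262 and 265 CPM and *Batf3* at 161 and 169 CPM. For *Xcl1* in cycling cells, the thinned value and those without the highest cells and in the cycling NK cluster end the call of 1.5-fold. Of all *Xcl1* UMIs, NK-like cells held 41.7% (UT) and 54.3% (BUP) without the 6% of cells of highest Scrublet score, 44.3% and 61.4% thinned, and 49.7% in BUP with 30 components. For *Flt3l* this share was 23.3% in UT without those cells, and 25.3% and 21.3% thinned. The cDC1-like share of *Xcr1* was 94.9% in BUP without them. Thinned cDC1-like shares were 80.5% and 67.4% for *Clec9a*, 25.7% and 32.1% for *Flt3*, and 14.4% and 25.9% for *Batf3*. With a minimum of 200 UMIs, which left 61 of the 99 pathway gene and class pairs, 1 was higher and 6 were lower. The causes were not tested. The alternatives on single groups of cells and shared barcodes were added after seeing the data.

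No paired analysis was possible because each condition had 1 library. For the same reason leaving out a replicate was not run.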
